A study of Mus musculus with 9 samples.

Results

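The genes described here encode 9 lysosomal cathepsins (Ctsa, Ctsb, Ctsc, Ctsd, Ctsh, Ctsk, Ctsl, Ctss and Ctsz) and the lysosomal protease legumain (Lgmn). They were chosen by gene name, with earlier results of these data known. All 10 were among the 24537 genes of the table that compared sham quadriceps with sham heart, and 8 were among the 587 genes of the table that compared quadriceps after transverse aortic constriction (TAC) with sham quadriceps. Ctsa and Lgmn were not analysed here in the TAC comparison.

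TAC ties a constriction around the aorta of wild-type mice and puts the left ventricle under chronic pressure overload, and sham mice underwent surgery without it. The mice were 8 weeks old at surgery and are given as C57Bl6 in the series' description, and as male C57Bl/6JCrl in the methods of the study. RNA sequencing was done 12 weeks after surgery on 3 sham hearts, 3 sham quadriceps muscles and 3 TAC quadriceps muscles, in all 9 libraries. The titles of the TAC libraries carry the word TACKachexie, and the study describes these mice as cachectic. TAC heart was not analysed here. Total counts, summed over transcripts, ran from 23383452 to 48999600 in the 8 libraries for which they could be computed. The TAC columns carry the numbers 1, 2 and 4, while the sample labels run to 3, so the column numbered 4 was used as a TAC library without a number of its own. The sources used here do not say whether each library came from 1 mouse or from pooled tissue, and p-values measure the spread between libraries only.

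Cathepsins are made as inactive precursors, are carried to the lysosome by mannose-6-phosphate receptors and sortilin, and become active in its acid interior. Most are cysteine proteases of the papain family, whereas Ctsd is an aspartic protease, Ctsa a serine carboxypeptidase and Lgmn an asparaginyl endopeptidase that also trims other cathepsin precursors. In skeletal muscle the lysosome degrades organelles and proteins delivered by autophagy, alongside the proteasome, and Ctsl is well known as a gene that is induced in several forms of muscle wasting. Cystatins are the inhibitors of the cysteine cathepsins. Ctsk and Ctss are known respectively for collagen breakdown by osteoclasts and for antigen processing in macrophages and dendritic cells, and Ctsc activates the granule proteases of leukocytes.

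The genes lie on 7 chromosomes of GRCm38, the build to which the authors aligned (mm10), and the counted reads come from the exons of RefSeq transcripts. Ctsl is at chromosome 13, 64359337 to 64370890 on the minus strand, and its counted transcript has 8 exons. Ctsd, with 9 exons, is at chromosome 7, 142375911 to 142388038 on the minus strand, and Ctsb, with 10 exons, is at chromosome 14, 63122462 to 63145923 on the plus strand. Ctsk (chromosome 3, 95499256 to 95509362) and Ctss (95526786 to 95556403) are neighbours on the plus strand with 17423 bases between them. The GENCODE annotation places another gene over part of Ctsa, Ctsb, Ctsc, Ctsd, Ctsl, Ctss and Ctsz, and none over Ctsh, Ctsk and Lgmn. For Ctsa, Ctsb, Ctsc and Ctsz these include only genes on the opposite strand, such as Fdft1 for Ctsb, and strand use in counting is not given in the sources used here, so reads from the shared stretch could not be assigned with certainty. A group of 9 placental cathepsin genes related to Ctsl had at most 1 read summed over all of them in any sham library.

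Many lysosomal genes carry a CLEAR element, the binding motif of TFEB and its relatives, around the letters CACGTG. This motif reads the same on both strands and also stands in other E-box elements, and it was the one motif searched. In RefSeq promoter windows of GRCm38.p6, the 250 bases before a transcription start held it in 6.02% of 32851 windows, and 6.86% of 27025 gene symbols had it in at least 1 window. Windows were at hand for 8 of the 10 genes, and 4 of their 10 windows held it, which gave 4 genes with a match, namely Ctsa, Ctsd, Ctsl and Lgmn. The windows of Ctsc, Ctsk, Ctss and Ctsz held no match. The matches are shown with up to 12 bases on either side, 5′ to 3′ on the strand of the gene, with CACGTG in capitals, since Ctsl and Lgmn are among the genes on which the comparisons turn and Ctsd is the most abundant of the 10.
Ctsl, chr13:64370739-64370768, minus strand: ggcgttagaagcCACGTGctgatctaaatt
Ctsd, chr7:142387908-142387937, minus strand: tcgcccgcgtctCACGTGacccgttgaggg
Ctsd, second match, chr7:142388055-142388077, minus strand: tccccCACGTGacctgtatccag
Lgmn, chr12:102439124-102439153, minus strand: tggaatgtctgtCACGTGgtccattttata
Ctsa, chr2:164833749-164833772, plus strand: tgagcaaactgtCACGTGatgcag
The motif began 236 bases before the start in Ctsl, 98 and 245 bases before it in Ctsd, 49 bases before it in the second of 2 windows of Lgmn and 12 bases before it in the second of 2 windows of Ctsa. These starts are those of RefSeq, and all of the matches except the second one of Ctsd lie inside the wider gene spans of GENCODE. A match describes the letters only and was not tested for binding.

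Per transcript length, Ctsd was the most abundant of the genes in every group. In RPKM (reads scaled by transcript length and by the total count of the library, as deposited), Ctsd stood at 200 ± 3.69 (SD, n = 3) in sham heart and 135 ± 20.8 in sham quadriceps, followed in both tissues by Ctsb (62.6 ± 2.12 and 30.1 ± 2.60) and Ctsl (32.7 ± 1.30 and 13.9 ± 2.46). In heart the order went on with Lgmn at 27.1 ± 3.16, Ctsa at 20.7 ± 0.877, Ctsz at 11.3 ± 0.617, Ctss at 8.87 ± 1.47, Ctsh at 5.23 ± 0.346, Ctsk at 2.21 ± 0.211 and Ctsc at 2.0 ± 0.258. Each neighbour in this order was separate in all 3 hearts from the next, except Ctsk and Ctsc, whose ranges overlapped. In sham quadriceps Ctsl was followed by Ctsz at 9.35 ± 0.466, Ctsa at 8.73 ± 0.791, Lgmn at 7.39 ± 0.0610, Ctss at 5.30 ± 1.96, Ctsc at 3.06 ± 0.631, Ctsh at 1.89 ± 0.652 and Ctsk at 1.35 ± 0.251. There the ranges of Ctsz and Ctsa overlapped, as did those of each neighbouring pair from Ctss to Ctsk. In the 2 TAC libraries whose RPKM column was used, Ctsd remained highest at 162 and 111, and the RPKM of Ctsl was 42.4 and 18.9 beside 19.0 and 22.4 for Ctsb, so that Ctsl was above Ctsb in 1 of the 2 and below it in the other.

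The first comparison asked how these genes differed in quadriceps between TAC and sham mice. Ctsl rose 4.53-fold in TAC quadriceps and Ctsk fell to 2.47-fold lower, while the other 6 cathepsins did not pass an adjusted p of 0.05 with edgeR's quasi-likelihood test, Benjamini-Hochberg adjusted over 586 genes. All 8 genes passed the filter on low counts. The levels given are counts normalized with TMM over the listed genes. Since this table is a chosen set of genes of secreted proteins, TMM sets the middle of that set to no change. With scaling by the total count of each library, available for 5 libraries, the median of all genes moved by -0.66 on the log2 scale. This scaling is therefore given beside TMM, and the shift also includes the loss of TAC library 4. The 1 gene that rose and the 1 that fell stand beside 17.7% of all tested genes called higher and 11.9% called lower with TMM. With library totals 1 rose and 4 fell, beside 3.41% called higher and 30.7% called lower. The median log2 fold change of the 8 was -0.25 with TMM beside 0.03 over all genes, and -0.81 with library totals beside -0.63.

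Ctsl, an endopeptidase of broad specificity, had raw counts of 1899, 1370 and 1073 in sham, against 7219, 3248 and 9757 in TAC libraries 1, 2 and 4. Its normalized counts were 1544, 1384 and 1475 in sham and 6992, 3178 and 9771 in TAC. Every TAC library was above every sham library, and the TAC libraries were also far more spread out (6647 ± 3310, SD, n = 3) than the sham libraries (1468 ± 79.8). The log2 fold change was 2.18 ± 0.38 (SE, adjusted p = 0.00704) with TMM and 1.15 ± 0.34 (adjusted p = 0.0357) with library totals. With TMM on the same 5 libraries it was 1.73 (adjusted p = 0.0169). Ctsl passed the test in each of 15 other settings, with a log2 fold change between 1.0 and 2.51, and without any 1 library it lay between 1.73 and 2.51. These settings are not all separate, since TMM on the same 5 libraries is the fit without TAC library 4. The study's fold threshold likewise reuses the main fit. The highest adjusted p was 0.0497, with limma on log2(RPKM + 1).

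Ctsk, a collagenolytic cysteine protease, had raw counts of 81, 56 and 51 in sham and 37, 15 and 27 in TAC. All TAC libraries lay below all sham libraries in normalized counts (64.2 ± 6.91 in sham and 25.9 ± 10.6 in TAC, SD, n = 3). The log2 fold change was -1.31 ± 0.35 (SE, adjusted p = 0.0257) with TMM and -1.98 ± 0.46 (adjusted p = 0.0171) with library totals. The call was lost without any 1 of the 3 sham libraries or without TAC library 4, with adjusted p between 0.0543 and 0.0961 and log2 fold changes between -1.41 and -1.24.

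**Figure D1:**
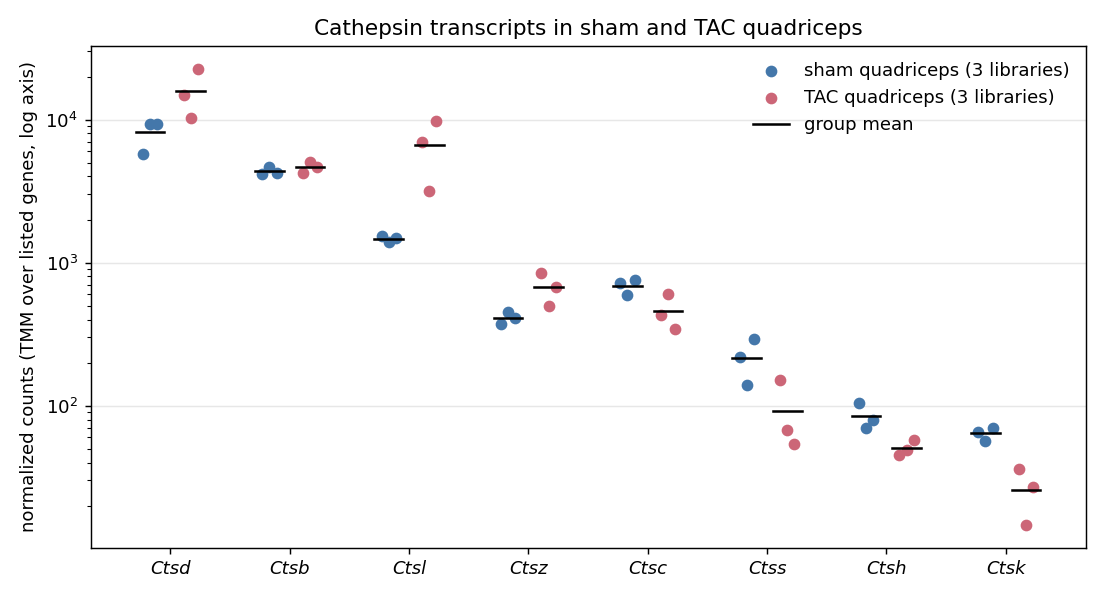
Normalized counts (TMM over the listed genes, log axis) of 8 cathepsins in 3 sham (blue) and 3 TAC (red) quadriceps libraries; points are libraries and black lines are group means. Ctsl, Ctsd and Ctsz lie higher and Ctsh and Ctsk lower in all TAC libraries than in all sham libraries, while Ctsb, Ctsc and Ctss overlap.

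Ctsd, which starts the degradation of many lysosomal proteins, had normalized counts of 5757, 9385 and 9360 in sham and 14834, 10325 and 22662 in TAC. The groups did not overlap, but the log2 fold change of 0.96 ± 0.33 did not pass the test (adjusted p = 0.0573) and was 0.01 ± 0.24 (adjusted p = 0.970) with library totals. Ctsz, a carboxypeptidase, had normalized counts of 371, 452 and 407 in sham and 843, 498 and 677 in TAC, again without overlap. Its log2 fold change was 0.71 ± 0.25 (adjusted p = 0.0634) with TMM and 0.08 ± 0.29 (adjusted p = 0.845) with library totals. On the same 5 libraries as the totals, TMM gave 0.55 for Ctsd and 0.64 for Ctsz (adjusted p = 0.202 and 0.144), so the lower values with library totals came with the scaling and, for Ctsd, also with the missing TAC library 4. Groups apart in the higher direction, as for Ctsl, Ctsd and Ctsz with TMM, were found for 26.1% of all tested genes, and in the lower direction, as for Ctsh and Ctsk, for 21.2%.

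Ctsb, which cuts within proteins and also removes dipeptides from their carboxy ends, showed the smallest difference with TMM. Its normalized counts were 4147, 4637 and 4255 in sham and 4230, 5089 and 4667 in TAC, so the groups overlapped. The log2 fold change was 0.10 ± 0.18 (adjusted p = 0.696) with TMM, and with library totals it was -0.54 ± 0.20 (adjusted p = 0.0645).

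The remaining cysteine cathepsins had negative log2 fold changes under both scalings. Ctsh, an aminopeptidase, had raw counts of 129, 69 and 58 in sham and 47, 50 and 57 in TAC, and its TAC libraries lay below its sham libraries after normalization (84.8 ± 18.1 and 50.5 ± 5.94). Its log2 fold change was -0.75 ± 0.26 (adjusted p = 0.0575) with TMM and -1.51 ± 0.37 (adjusted p = 0.0204) with library totals. Ctss had raw counts of 268, 137 and 213 in sham and 157, 69 and 54 in TAC, and TAC library 1 overlapped with the sham range after normalization. Its log2 fold change was -1.24 ± 0.44 (adjusted p = 0.0656) with TMM and -1.62 ± 0.48 (adjusted p = 0.0373) with library totals. Leaving out TAC library 1 gave -1.89 with TMM, which passed the test (adjusted p = 0.0138). Ctsc had raw counts of 885, 587 and 552 in sham and 442, 617 and 341 in TAC, with TAC library 2 inside the sham range after normalization. Its log2 fold change was -0.59 ± 0.26 (adjusted p = 0.123) with TMM and -1.07 ± 0.29 (adjusted p = 0.0277) with library totals. Between these 2 analyses, Ctsc, Ctsh and Ctss passed the test with library totals and not with TMM, and Ctsk passed with both.

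**Figure D2:**
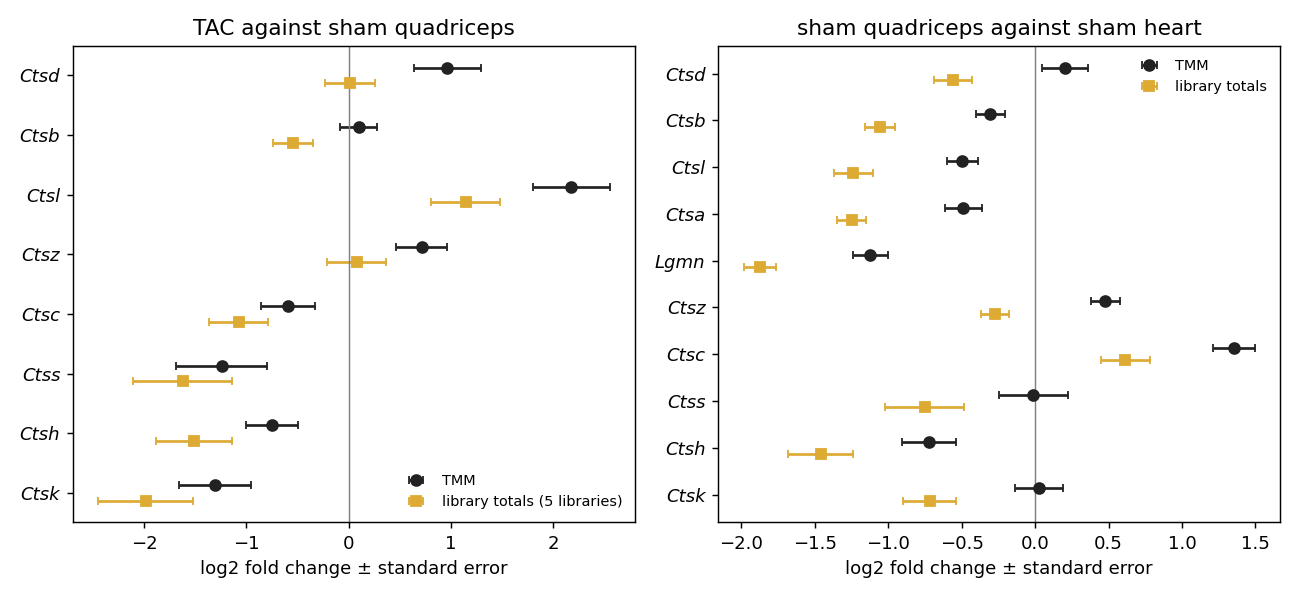
Log2 fold change with its standard error for each gene, from edgeR with TMM (black circles) and with library totals (yellow squares), for TAC against sham quadriceps on the left and sham quadriceps against sham heart on the right. Ctsl on the left and Ctsc on the right stay above 0 under both scalings, whereas Ctsd and Ctsz lie near 0 in the left panel and below 0 in the right panel with library totals.

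The balance among the 8 cathepsins needs no scaling between libraries, because each is taken as a share of their summed count per length within a library. Ctsl made up 8.99%, 5.83% and 6.16% in sham and 17.6%, 11.6% and 17.4% in TAC. The share was higher in every TAC library than in every sham library, and the exact two-sided permutation test gave p = 0.1, the smallest value that 3 against 3 libraries allow. The share of Ctsd was 67.3% ± 6.05 (SD, n = 3) in sham and 69.3% ± 2.90 in TAC, with overlap. The shares of Ctsc, Ctsh, Ctsk and Ctss were lower in all TAC libraries, for instance 0.678% ± 0.163 and 0.142% ± 0.0510 for Ctsk and 2.66% ± 0.994 and 0.628% ± 0.372 for Ctss. Shares sum to 100%, so a larger share of one gene lowers the others. Ctsb went from 15.2% ± 2.43 to 9.26% ± 3.99 and Ctsz from 4.69% ± 0.560 to 4.19% ± 1.14, both with overlap.

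Read count ratios of Ctsl to each single cathepsin were likewise higher in all TAC than in all sham libraries for each of the 7 others. The ratio of Ctsl to Ctsb was 0.372, 0.299 and 0.347 in sham and 1.65, 0.625 and 2.09 in TAC, and that of Ctsl to Ctsk was 23.4, 24.5 and 21.0 in sham and 195, 217 and 361 in TAC. On the log2 scale the mean ratio was higher in TAC by 1.11 against Ctsd, 1.35 against Ctsz, 1.94 against Ctsb, 2.66 against Ctsc, 2.77 against Ctsh, 3.37 against Ctss and 3.44 against Ctsk. The 7 ratios share Ctsl and the same libraries, and each gave the smallest exact permutation p of 0.1. Ctsl was the gene with the largest rise in these same counts. Its shares and ratios therefore restate that difference without scaling between libraries and are not separate evidence.

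**Figure D3:**
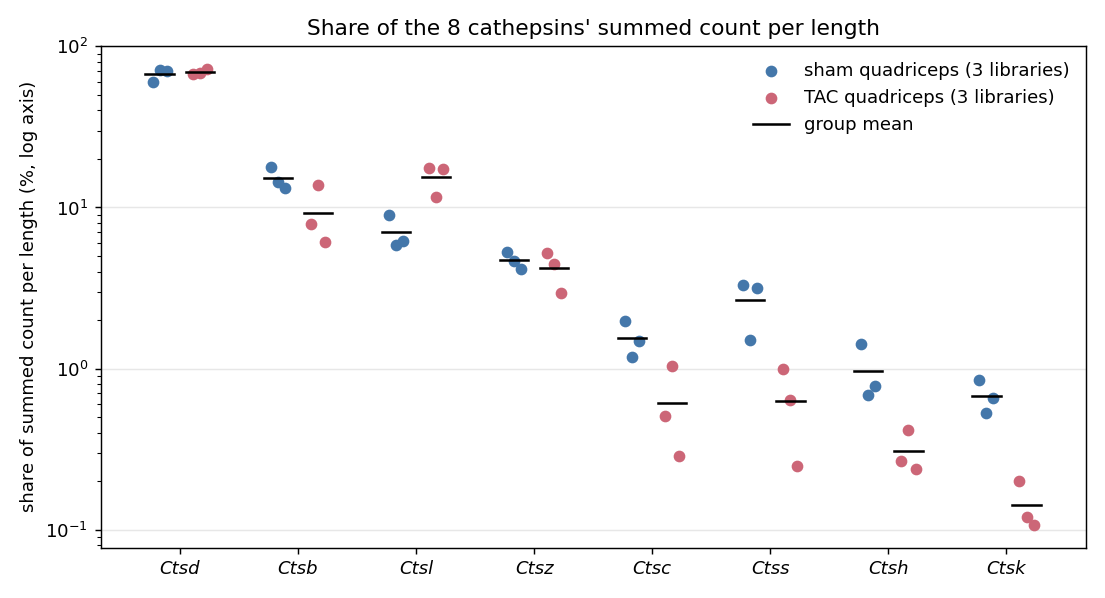
Share of each cathepsin in the summed count per length of the 8 (percent, log axis) in 3 sham (blue) and 3 TAC (red) quadriceps libraries, with group means as black lines. The share of Ctsl lies between 5.83% and 8.99% in sham and between 11.6% and 17.6% in TAC, whereas Ctsc, Ctsh, Ctsk and Ctss lie lower in all TAC libraries.

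Markers of other cells of muscle differed between the same libraries, where 17.7% of all tested genes were called higher and 11.9% lower with TMM. Of 18 macrophage markers 5 were in the table, and Lyz2, C1qa, C1qc and Itgam fell with TMM, while C1qb did not pass the test (log2 fold change -0.58, adjusted p = 0.12). Their median log2 fold change was -1.25 with TMM. Their summed normalized counts ranged from 796 to 1059 in sham and from 364 to 442 in TAC. Of 9 fibroblast markers 7 were in the table and 5 fell with TMM (Col1a1, Col1a2, Col3a1, Dpt and Lum). Dcn (log2 fold change 0.17, adjusted p = 0.601) and Fbln1 (-0.27, adjusted p = 0.525) did not pass the test with TMM. The median log2 fold change of the 7 was -2.34 with TMM. Summed normalized counts of the 7 ran from 10919 to 14252 in sham and from 6584 to 9745 in TAC. Dcn made up much of these sums, with means of 6474 in sham and 7301 in TAC. Of 7 endothelial markers 2 were in the table. Pecam1 rose with TMM (log2 fold change 0.63, adjusted p = 0.0341) and Egfl7 did not pass the test (0.07, adjusted p = 0.896). With library totals Pecam1 had -0.02 (adjusted p = 0.948), and Egfl7 fell (-0.94, adjusted p = 0.0333). None of these markers was at 0 in all libraries. Their part in the lower values of Ctsk, Ctss, Ctsc and Ctsh was not tested, and in bulk tissue fewer cells of a type and less RNA per cell cannot be told apart.

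Adipocyte markers varied strongly within both groups, with summed normalized counts of the 3 listed (Adipoq, Cfd and Retn) from 315 to 2302 in sham and from 415 to 2860 in TAC, and none passed the test. Raw counts of Adipoq were 540, 117 and 707 in TAC libraries 1, 2 and 4 and 1183, 425 and 94 in sham. In both groups the raw counts of Ctsl had this order, but it was not particular to Ctsl. Ctsb, Ctsc, Ctsh, Ctsk and Ctsz had it in sham and Ctsd had it in TAC. Sham library 3 had the smallest of the known total counts (23383452). After normalization Ctsl kept this order in TAC only, since its sham values were 1544, 1384 and 1475. TAC library 2 was also the lowest TAC library for Ctsd and Ctsz. Without it the log2 fold change of Ctsl was 2.51, and Ctsd and Ctsz passed the test as well. The part of fat tissue in these values was not tested.

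The other genes of the lysosomal pathway in this table passed the test as higher in part with TMM and in no case with library totals. Of 17 other lysosomal hydrolases and cofactors 4 rose and none fell with TMM, beside 17.7% and 11.9% of all tested genes. Among the 4 were Naglu (log2 fold change 1.78, adjusted p = 0.0194), Idua (1.13, adjusted p = 0.0194) and Man2b1 (1.04, adjusted p = 0.0290). These enzymes break down heparan sulfate, heparan and dermatan sulfate, and mannose-containing glycans. With library totals and the same test none of the 17 passed as higher and 2 passed as lower, beside 3.41% and 30.7% of all tested genes. Naglu had a log2 fold change of 1.27 there (adjusted p = 0.0723), with its groups apart in the higher direction. At an unadjusted threshold of 0.05 in edgeR it was the 1 of the 17 that was higher. Both lysosomal membrane genes listed rose with TMM, Lamp2 by 1.22 (adjusted p = 0.0178) and Cd63 by 0.90 (adjusted p = 0.0366), and neither passed with library totals (0.70 and 0.06). Of other cathepsins, Ctsf rose with TMM (0.83, adjusted p = 0.0487) but had a log2 fold change of 0.05 with library totals, and Ctso did not pass under either (-0.02 and -0.63).

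Of 10 cystatins 2 were in the TAC table, and of 10 sorting genes 1, and none of these 3 passed the test with TMM. For Cst3, the secreted inhibitor cystatin C, the log2 fold change was 0.28 (adjusted p = 0.479) with TMM, and it fell by 0.68 (adjusted p = 0.0419) with library totals. Cstb, the intracellular cystatin B, had 0.30 (adjusted p = 0.414) and -0.29 (adjusted p = 0.486). Igf2r, the large mannose-6-phosphate receptor, had 0.55 (adjusted p = 0.0952) with TMM and -0.03 with library totals. The TFEB family and the proton pump that acidifies the lysosome were not analysed here in TAC muscle.

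The second comparison set the 10 genes in sham quadriceps against sham heart, the 2 striated muscles of mice without aortic constriction. The 3 sham quadriceps libraries are those of the TAC comparison, with identical counts for 587 of 587 shared rows, so the 2 comparisons share them and are not independent. Myocyte markers matched the tissue labels, with all 6 cardiomyocyte markers lower and all 6 skeletal muscle fiber markers higher in quadriceps. With TMM, Ctsc and Ctsz were higher in quadriceps and Lgmn, Ctsl, Ctsa, Ctsb and Ctsh were lower, while Ctsd, Ctsk and Ctss did not pass the test. The 2 higher and 5 lower genes stand beside 32.2% and 34.4% of 24280 tested transcripts. Library totals moved the median of all transcripts by -0.75 on the log2 scale, and 1 gene was then higher and 9 were lower, beside 13.3% and 62.6% of all transcripts. All 10 genes, through all of their 14 transcripts, passed the filter on low counts. The median log2 fold change of the 10 was -0.16 with TMM beside -0.06 over all transcripts, and -0.90 with library totals beside -0.80.

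Lgmn differed most among the genes that were lower in quadriceps. Its counts were 2145, 1791 and 1894 in heart and 484, 486 and 341 in quadriceps, or 41.6 ± 5.20 and 19.1 ± 1.27 CPM (counts scaled to library size, here with TMM; SD, n = 3). The groups did not overlap, and the log2 fold change was -1.12 ± 0.12 (adjusted p = 3.15e-05) with TMM and -1.87 ± 0.11 with library totals. Ctsc went the other way, with counts of 513, 530 and 568 in heart and 885, 587 and 552 in quadriceps, or 11.5 ± 1.49 and 29.4 ± 4.28 CPM. It was higher in quadriceps under both scalings, with a log2 fold change of 1.35 ± 0.14 (adjusted p = 2.62e-05) with TMM and 0.61 ± 0.17 (adjusted p = 0.0101) with library totals.

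Ctsl, which rose in TAC quadriceps, was lower in sham quadriceps than in sham heart. It stood at 88.2 ± 3.91 CPM in heart and 62.6 ± 6.50 CPM in quadriceps, a log2 fold change of -0.49 ± 0.11 (adjusted p = 0.00254) with TMM and -1.24 ± 0.13 with library totals. Ctsa, which also protects beta-galactosidase and neuraminidase in the lysosome, stood at 56.4 ± 2.92 and 40.2 ± 6.33 CPM (log2 fold change -0.49, adjusted p = 0.00725). Ctsb stood at 228 ± 9.89 and 185 ± 8.81 CPM (log2 fold change -0.30, adjusted p = 0.0228), a call that was lost without heart library 1, without heart library 3 and without quadriceps library 3, with adjusted p up to 0.0997. Ctsh stood at 6.06 ± 0.456 and 3.64 ± 0.979 CPM (log2 fold change -0.72, adjusted p = 0.00643). With library totals all 4 of these genes were lower as well, with log2 fold changes from -1.46 to -1.05.

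For the other genes the scaling decided the direction or the call. Ctsz stood at 12.5 ± 0.559 CPM in heart and 17.4 ± 1.12 CPM in quadriceps, and its log2 fold change was 0.48 ± 0.10 (adjusted p = 0.00205) with TMM but -0.27 ± 0.09 (adjusted p = 0.0264) with library totals. Ctsd stood at 299 ± 8.42 and 344 ± 72.8 CPM, with quadriceps library 1 below the hearts and the others above them, and its log2 fold change was 0.20 ± 0.16 (adjusted p = 0.275) with TMM and -0.56 ± 0.13 (adjusted p = 0.00428) with library totals. Ctsk and Ctss had log2 fold changes of 0.03 ± 0.16 (adjusted p = 0.893) and -0.01 ± 0.24 (adjusted p = 0.966) with TMM, and of -0.72 and -0.75 with library totals (adjusted p = 0.00663 and 0.0327). The second transcripts of Ctsa, Ctsc, Ctsh and Ctss share reads with those given and are not separate evidence.

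**Figure D4:**
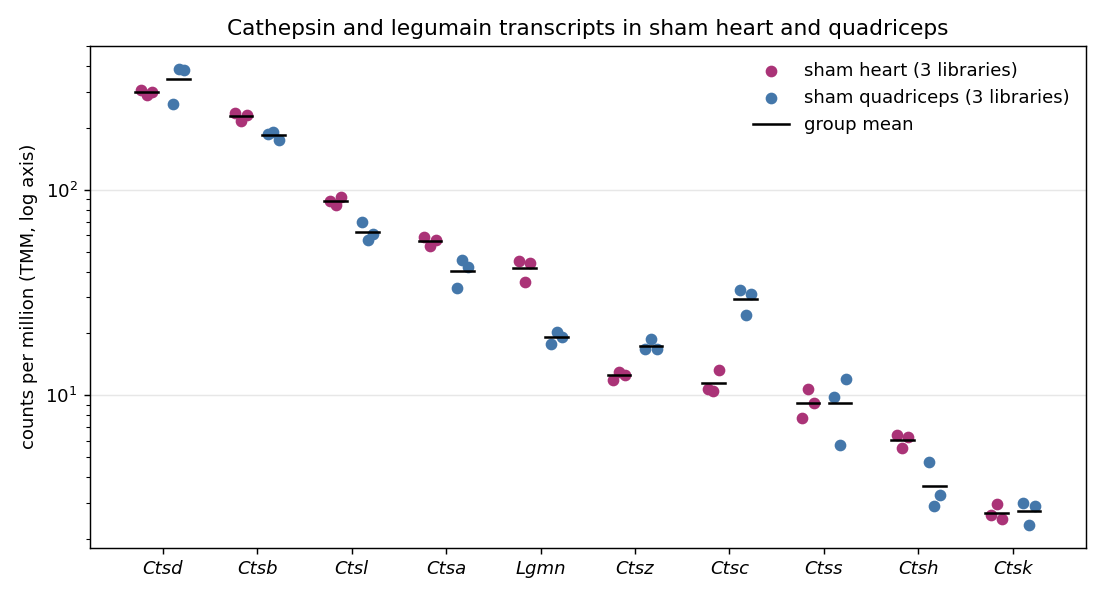
CPM scaled with TMM (log axis) of the 10 genes in 3 sham heart (purple) and 3 sham quadriceps (blue) libraries; points are libraries and black lines are group means. Lgmn lies lower and Ctsc higher in all quadriceps than in all heart libraries, and Ctss and Ctsk overlap.

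Markers of cells other than myocytes also differed between the tissues, where 32.2% of all tested transcripts were called higher and 34.4% lower with TMM. Of 18 macrophage markers 12 were lower in quadriceps with TMM and none was higher, with a summed level of 145 to 148 CPM in heart and 68.7 to 96.7 CPM in quadriceps. All 7 endothelial markers were lower (510 to 554 and 160 to 187 CPM), as were 5 of 9 fibroblast markers (728 to 826 and 485 to 682 CPM), whereas 5 of 6 adipocyte markers were higher. Of 6 leukocyte markers tested, Cd52 was higher, Laptm5 and Ptprc were lower and 3 did not pass, and Ctsc was higher in quadriceps in these same libraries. The part of these cells in the differences was not tested.

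The wider lysosomal pathway was measured in full here. With TMM, 9 of 38 other hydrolases and cofactors were higher in quadriceps and 17 were lower, 7 of 12 membrane genes were higher and 2 lower, and 8 of 15 subunits of the proton pump were higher and 1 lower. With library totals 2 and 31 of the hydrolases, 2 and 5 of the membrane genes and 3 and 9 of the pump subunits were higher and lower. Of all tested transcripts, 32.2% were higher and 34.4% lower with TMM, and 13.3% and 62.6% with library totals. Among the sorting genes Sort1, which encodes sortilin, was higher by 2.14 (adjusted p = 1.55e-06), and Igf2r fell by 1.29 (adjusted p = 2.84e-05) from heart to quadriceps, under TMM, and both kept their direction with library totals (1.38 and -2.05). Of the TFEB family, Mitf had a log2 fold change of -1.06 and Tfe3 of -0.56, both past the test under both scalings, and Tfeb was higher by 0.87 (adjusted p = 0.000161) with TMM and not past the test with library totals (0.12). Of the 3 cystatins tested, Cst6 was higher under both scalings (4.06 and 3.30), and Cst3 (1.03) and Cstb (0.62) with TMM only.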

How the data were processed

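RNA of 3 sham heart, 3 sham quadriceps and 3 TAC quadriceps libraries was sequenced by the authors with single-end reads, trimmed with Trim Galore, aligned to mm10 with STAR and counted on RefSeq transcripts with Rsubread. Tool versions are not given in the sources used here. The deposited tables hold raw counts and RPKM values, both made by the authors, beside the transcript length, and the authors' own fold changes, F scores and p-values, which were not used. For 111 rows the counts belong to another transcript than those statistics, Ctss among them. The authors restricted the TAC table to genes with an extracellular annotation. The RPKM column of TAC library 4 could not be tied to a labelled sample, so the number of library columns left unused is 1, and library totals, recovered from counts, RPKM and length, were known for the other libraries only.

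The test on counts was that of edgeR 4.0.16 under R 4.3.3 (quasi-likelihood, TMM, rows above 5 counts in 2 or more libraries, Benjamini-Hochberg adjustment, adjusted p under 0.05). Each comparison used only its own 2 groups. Normalized counts are counts divided by the TMM-scaled library size relative to the mean size. Alternatives were DESeq2 1.42.0, limma 3.58.1 on log2(RPKM + 0.5) or log2(RPKM + 1), library totals, other filters, the study's fold thresholds, 1 transcript per gene, the replicate number as a block and leaving out each library. The procedure was tested on simulated data. Replicate libraries differed by more than sampling noise (lowest chi-square over its degrees of freedom 7.40). Same-numbered libraries did not deviate together (r = 0.060 between TAC and sham quadriceps, and -0.097 to 0.023 between quadriceps and heart), and libraries were treated as unpaired. The r between TAC and sham rests on the libraries numbered 1 and 2 only, and a single value cannot settle pairing. All 10 genes are named. Of each further list at most the 3 genes with the smallest p are named with values, with these exceptions. The cathepsins and cystatins tested may all be named. Macrophage, fibroblast, endothelial and adipocyte genes tested in the TAC comparison are named too, some with values. Each of the 10 genes with several transcripts is given by the one in the TAC table, or else by the one with the most counts. A gene of the further lists is given in each comparison by its transcript with the most counts there. For Lamp2, Psap, Itgam, Pecam1 and Egfl7 this was not the same transcript in both comparisons. The genes and lists were chosen with earlier results of these data known. The placental cathepsins were added after values had been seen. Positions come from GENCODE vM21 (GRCm38), promoter windows (250 bases before to 50 after a start) from RefSeq, computed with Python 3.11.15. Sequencing runs are not named in the labels, so run and group cannot be told apart.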

Additional observations from a re-analysis of the deposited data

How the results depend on the processing

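In TAC against sham quadriceps, 2 of the 8 cathepsins passed the test in the analysis reported, 1 higher and 1 lower. With the study's fold threshold (log2 fold change of at least 1) and an unadjusted p, 3 passed, 1 higher and 2 lower, and with DESeq2 4 passed, 2 higher and 2 lower. Library totals, and limma on log2 RPKM with either pseudocount, gave 5, 1 higher and 4 lower. TMM on the same 5 libraries, a setting added after the data were seen, gave 1, with 1 higher and 0 lower. Leaving out 1 library gave between 1 and 5, with 1 to 3 higher and 0 to 2 lower. Over all tested genes, 17.7% were called higher and 11.9% lower in the analysis reported, and 3.41% and 30.7% with library totals. No such share is given for the other settings of this section, so their counts cannot be read against it. Ctsl passed in 15 of 15 settings and Ctsk in 10 of 15. TMM on the same 5 libraries and leaving out TAC library 4 are 1 fit, so the 15 are not all separate. Without TAC library 2, Ctsc, Ctsd and Ctsz also passed, and without TAC library 1 Ctss did. The log2 fold change of Ctsb turned to -0.54 with library totals and to -0.53 and -0.52 with limma at pseudocounts of 0.5 and 1, and that of Ctsd to -0.0029 at both.

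In quadriceps against heart, 7 of the 10 genes passed, 2 higher and 5 lower, beside 32.2% and 34.4% of all tested transcripts. Library totals and limma gave 10, 1 higher and 9 lower, beside 13.3% and 62.6% of all transcripts with library totals. No gene, 0 higher and 0 lower, had a log2 fold change over 2. Leaving out 1 library gave 6 to 8, with 2 to 3 higher and 4 to 5 lower. With library totals the log2 fold change turned to -0.56 for Ctsd, -0.72 for Ctsk and -0.27 for Ctsz. With limma it turned to -0.57 and -0.57 for Ctsd, -0.56 and -0.46 for Ctsk and -0.26 and -0.25 for Ctsz. That of Ctsk was -0.0097 without a filter, -0.039 with at least 10 counts in every library and from -0.024 to 0.13 without 1 library. That of Ctss was 0.011 with DESeq2 and from -0.22 to 0.24 without 1 library. Apart from the change of scaling that library totals and RPKM bring, the cause was not tested.

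With the replicate number as a block, 2 cathepsins passed in the 4 quadriceps libraries numbered 1 and 2 (Ctsl 1.69, Ctsk -1.36), and 6 genes passed in quadriceps against heart, where Ctsb was lost (adjusted p = 0.0808). Same-numbered libraries did not deviate together, but the sources used here do not say whether a sham heart and a sham quadriceps with equal numbers are of 1 mouse. With 3 libraries a group no exact permutation test can go below 0.1, and counts of Ctsk and Ctsh under 130 in the TAC table limit what can be seen there.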
